A study of Mus musculus with 12 samples.

Results

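The genes described here are 35 genes of the response to interferon-gamma and of antigen presentation by MHC class I. They were listed by their symbols, with earlier results of these data known. They are the guanylate-binding proteins (GBPs) Gbp2 to Gbp9, the immunity-related GTPases Igtp, Irgm1, Irgm2, Iigp1 and Tgtp1, both chains of the interferon-gamma receptor, the regulators Irf1, Irf8 and Nlrc5, 6 class I chains, 3 genes of peptide transport and loading, 5 genes of the immunoproteasome and its activator, and the targets Ido1, Cd274 and Wars. All 35 were found among the 17734 genes of the expression table, and all 35 were among the 15315 tested genes, whose mean over the 12 mice was 0.1 FPKM or more. FPKM is a level scaled for transcript length and sequencing depth, and the unit was read from the values. The study used male C57BL/6 mice of 8 to 10 weeks, divided into 4 groups of 3: normal mice on water, colitis mice that drank 2.5% dextran sulfate sodium (DSS, a compound that damages the colon epithelium) for 7 days, normal mice receiving berberine (BBR, a plant alkaloid), and colitis mice receiving BBR. The daily gavage dose of BBR was 100 mg/kg, for 6 days by the sample labels and for 7 days by the study's methods. The tissue is colorectum by the labels and rectum by the methods. Whole tissue was sequenced from 1 time point, so that these mice model acute injury and the values do not separate cell types.

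Interferon-gamma is a cytokine made mainly by activated T cells and natural killer (NK) cells. It binds a receptor built from the Ifngr1 and Ifngr2 chains, the kinases JAK1 and JAK2 pass the signal on inside the cell, and many target promoters carry a short DNA motif called GAS through which the response is started. A further wave of targets is reached through interferon regulatory factors such as IRF1, which bind the motif called ISRE. The targets include GTPases that attack the vacuoles of intracellular microbes, and the genes with which a cell cuts its proteins into peptides, moves the peptides into the endoplasmic reticulum and shows them on MHC class I molecules. In the colon these genes are expressed by epithelial cells as well as by leukocytes.

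The 2 motifs were searched in the promoters, taken as 250 bases before to 50 bases after the start site in RefSeq sequences of build GRCm38.p6. A promoter was found for 26 of the 35 genes, with 31 promoters in all. GAS was written as TTCNNNGAA and ISRE as GAAANNGAAA, both strands were read, and the letters of the 2 motifs may overlap. GAS letters were present in 8 of the 31 promoters (Gbp5, Gbp7, Igtp, Irgm2, Tgtp1, Irf1, Irf8 and Psmb8) and in 8.3% of all 32851 promoters. ISRE letters were present in 11 of the 31 (Gbp2, Gbp3, Gbp5, Gbp7, Igtp, Irgm1, Irgm2, Tgtp1, B2m, H2-T23 and Psme1) and in 3.44% of all promoters. The stretches below show the motifs in genes whose levels are described in the next paragraphs, 5′ to 3′ on the strand of the gene, with motif letters in capitals.
Igtp, chr11:58199466-58199555, plus strand: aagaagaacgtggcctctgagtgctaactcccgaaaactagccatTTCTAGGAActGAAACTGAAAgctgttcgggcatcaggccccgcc
Irgm2, chr11:58214857-58214955, plus strand: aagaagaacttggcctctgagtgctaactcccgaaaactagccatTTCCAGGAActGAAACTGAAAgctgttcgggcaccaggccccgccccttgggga
Tgtp1, chr11:48992281-48992379, minus strand: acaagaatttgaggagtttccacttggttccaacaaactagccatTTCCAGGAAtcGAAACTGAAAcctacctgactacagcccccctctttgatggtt
Gbp7, chr3:142530204-142530302, plus strand: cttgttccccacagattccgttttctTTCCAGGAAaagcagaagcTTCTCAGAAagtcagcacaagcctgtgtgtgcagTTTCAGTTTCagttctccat
Gbp2, chr3:142620559-142620658, plus strand: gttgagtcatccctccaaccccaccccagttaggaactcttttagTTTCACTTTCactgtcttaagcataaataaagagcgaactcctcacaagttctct
Irf1, chr11:53769879-53769977, plus strand: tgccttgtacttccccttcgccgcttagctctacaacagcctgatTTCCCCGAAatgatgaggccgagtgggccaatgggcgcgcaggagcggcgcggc
B2m, chr2:122147503-122147602, plus strand: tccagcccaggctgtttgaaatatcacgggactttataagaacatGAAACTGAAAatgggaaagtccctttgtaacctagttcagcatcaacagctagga
Psmb8, chr17:34198053-34198151, plus strand: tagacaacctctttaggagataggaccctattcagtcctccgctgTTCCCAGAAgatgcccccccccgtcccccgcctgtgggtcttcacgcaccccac
Igtp, Irgm2 and Tgtp1, 3 immunity-related GTPases, each carried the letters of GAS followed 2 bases later by those of ISRE, and the stretches of Igtp and Irgm2 were the same at 87 of 90 bases. A match of letters is a description of the sequence and was not tested for binding.

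The table gives no read counts. From the steps between low values, 3 reads on a transcript of 2000 bases were worth 0.0768 to 0.119 FPKM over the 12 mice, which covers counting error only. The 4 mice numbered 4, 1 in each group, stood apart, with column totals of 482194 to 504337 against 696286 to 765876 in the other 8, and the fits without them, or with a block for them, are given beside the results they change most. The level of B2m, a short transcript, was lower in the mouse numbered 4 than in the other mice of its group, with log2 differences of -0.81, -0.81, -0.76 and -1.92 in normal mice, colitis mice and both with BBR. The steps were met best with transcript lengths shortened by 0 to 75 bases in the mice numbered 4 and by 250 to 300 bases in the other 8. These lengths are approximate, since the mean cosine of the values to the steps, which is 1 where every value lies on a step, was 0.363 to 0.526, and their part in the level of B2m was not tested. Epcam, a marker of epithelium, was at 780 to 1201 FPKM. The 6 markers of squamous epithelium summed to 1.28 to 7.52 FPKM, with Krt5 at most at 0.12 FPKM and Krt13 at up to 5.18 FPKM in colitis mice, higher there past the P limit defined next. Groups were compared with limma on log2(FPKM + 0.1) over all 12 mice, with p-values adjusted over the 15315 genes, and the study's own limit of an unadjusted P of at most 0.05 (the P limit) stands beside the adjusted limit of 0.05. Fold changes on this scale understate the change of genes with low values. The exact permutation test of 3 mice against 3 cannot give a p under 0.1. Values are listed in the order of the mouse numbers, which are 1, 3 and 4 for normal mice with or without BBR, 1, 2 and 4 for colitis and 2, 3 and 4 for colitis with BBR.

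Colitis mice were first compared with normal mice, to ask which of these genes differ in injured bowel. Of the 35 genes, 34 had a higher mean in colitis mice, and 24 (68.6%) passed the P limit, all 24 higher, where 5.56% of all tested genes passed it as higher. The median difference was 1.20 on the log2 scale over the 35 genes and -0.32 over all tested genes. In 25 of the 35 the 3 colitis mice lay above the 3 normal mice with no overlap, against 7.1% of all tested genes. No member passed the adjusted limit with limma, which 1.08% of all genes did, and the smallest adjusted p-values were those of Gbp4 (0.0581), Gbp5 (0.0615) and Nlrc5 (0.0652). With a block for the mice numbered 4, the P limit was passed by 27 members, all higher (7.05% of all genes), and the adjusted limit by 14 (9.22% of all genes in either direction). In the 8 mice numbered 1 to 3 alone, 18 members passed the P limit, all higher (6.07% of all genes), and 1 member passed the adjusted limit, which 5.25% of all genes did. Leaving out 1 mouse at a time gave 19 members past the P limit (without colitis mouse 4) to 22 (without colitis mouse 1), all higher. In these 6 fits 4.32% to 6.12% of all genes passed it as higher. Of the 24 members, 16 passed it in each of these fits. The 8 that did not were Gbp7, Gbp9, Irgm1, Irgm2, H2-Q4, H2-Q7, Psmb10 and Cd274. Of all genes past the P limit 26.0% were higher in colitis mice, and 53.7% after each mouse was centred on its median, which moved the median of all genes from -0.32 to 0.02. After centring, 27 members passed the limit, all higher (9.42% of all genes), with a median of 1.54. In whole tissue, more cells of a type and more RNA per cell cannot be told apart.

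**Figure D1:**
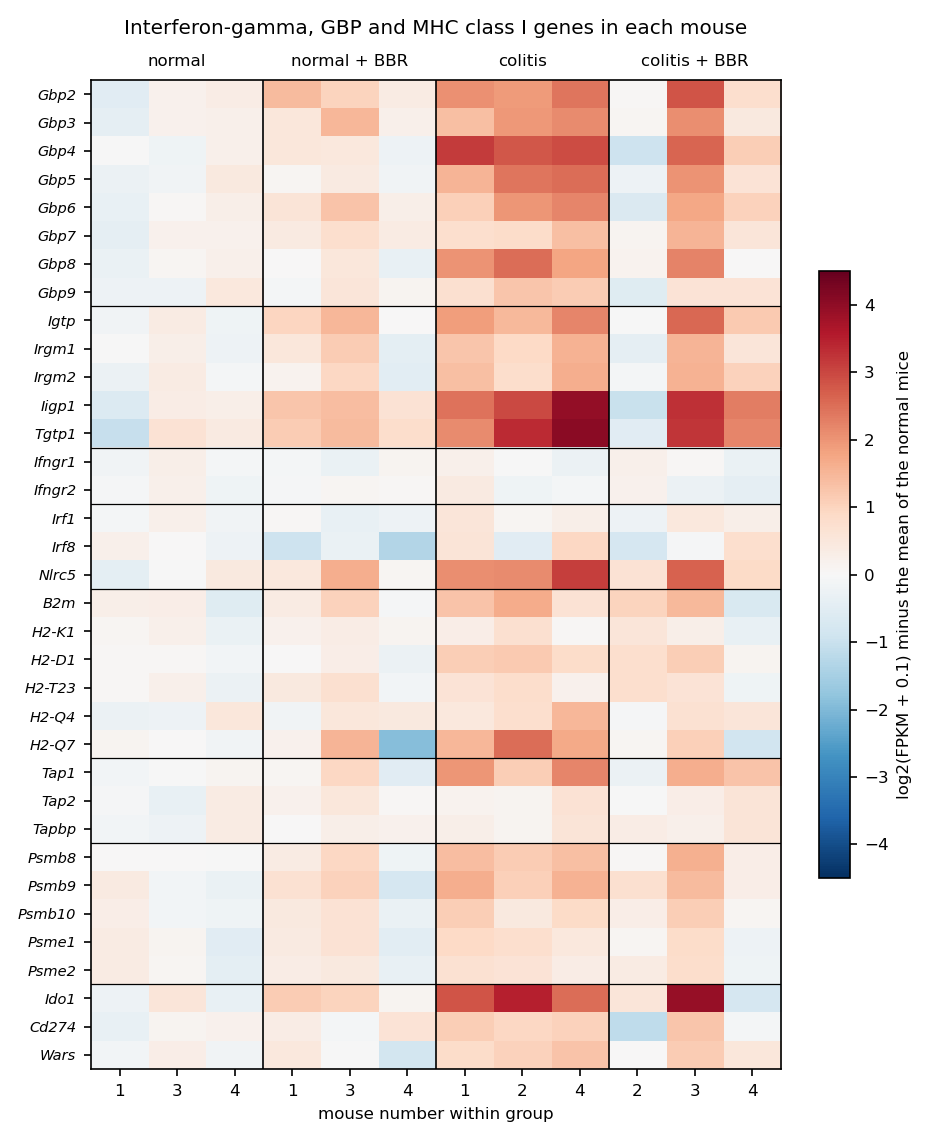
Levels of the 35 genes in each of the 12 mice, as log2(FPKM + 0.1) minus the mean of the 3 normal mice, from blue (lower) to red (higher). Rows are genes grouped by role, columns are mice with their number. All 3 colitis columns are red for the GBPs and GTPases. Of the 3 mice with colitis and BBR, mouse 3 resembles the colitis mice and mouse 2 the normal mice.

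The GBPs are GTPases that assemble on the membranes of intracellular pathogens. All 8 members Gbp2 to Gbp9 were higher in colitis mice past the P limit, where 5.56% of all tested genes were. Their differences were 0.97 (Gbp7) to 2.95 (Gbp4) on the log2 scale, with a median of 1.96. Gbp2 was the most abundant of them, at 15.2, 25.1 and 27.2 FPKM in normal mice and at 90.5, 81.9 and 117 FPKM in colitis mice. Its lowest colitis mouse was above its highest normal mouse, and the difference was 2.12 with an SE of 0.56 (adjusted p = 0.082). Gbp4 was at 0.75, 0.65 and 0.91 FPKM in normal mice and at 7.51, 5.90 and 6.47 FPKM in colitis mice, a difference of 2.95 with an SE of 0.67. Gbp5, which promotes inflammasome assembly, was at 1.13, 1.21 and 1.87 FPKM in normal mice and at 4.11, 7.74 and 8.35 FPKM in colitis mice, a difference of 2.15 with an SE of 0.50. In both genes the groups did not overlap. Gbp8 went from a mean of 0.913 ± 0.18 to 4.29 ± 1.17 FPKM (SD, n = 3 mice each), Gbp3 from 3.72 ± 0.88 to 13.5 ± 3.5, and Gbp6 from 1.43 ± 0.31 to 5.26 ± 1.98. Gbp7 and Gbp9 had the smallest differences of the family, 0.97 and 1.04, and both lost the P limit in some fits that left out 1 mouse. In the mice numbered 1 to 3 alone, 6 of the 8 passed the limit and Gbp6 and Gbp7 did not (6.07% of all genes passed it as higher). All 8 were without overlap between the groups, against 7.1% of all tested genes that were higher without overlap. Gbp2b, a further GBP of the table that is not among the 35 genes, went the other way, at 1.04, 0.90 and 0.91 FPKM in normal mice and at 0.08, 0.36 and 0.75 FPKM in colitis mice. It was lower past the P limit without overlap, with a difference of -1.34 (SE 0.52). The mouse has the GBPs in clusters on chromosomes 3 and 5, and the median difference was 1.97 for Gbp2, Gbp3, Gbp5 and Gbp7 on chromosome 3 and 1.93 for Gbp4, Gbp6, Gbp8 and Gbp9 on chromosome 5. Of the 50-base stretches of Gbp6, 90.2% are shared with other genes, mainly its close copies, and 21.2% of those of Gbp8, so that reads of 50 bases could be divided among copies.

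The immunity-related GTPases, which disrupt the vacuoles of intracellular parasites and bacteria, were all higher in colitis mice past the P limit, with no overlap in any of the 5 and a median difference of 1.85. The shares over all tested genes were 5.56% past the limit as higher and 7.1% higher without overlap. Iigp1 was at 0.93, 1.87 and 1.79 FPKM in normal mice and at 8.5, 12.1 and 24 FPKM in colitis mice, a difference of 3.12 with an SE of 0.85 (adjusted p = 0.088). Tgtp1 was at 0.31, 1.22 and 1.03 FPKM in normal mice and at 3.63, 8.53 and 14.1 FPKM in colitis mice. Its difference of 3.18 (SE 0.83) was the largest of the 35 genes, although 81.2% of its 50-base stretches are shared, mainly with Tgtp2. Irgm1, which restrains the effector GTPases on the cell's own membranes, went from 22.7 ± 3.8 to 53.6 ± 12.1 FPKM, with a difference of 1.22 (SE 0.46). Irgm2 (1.26) and Igtp (1.85) had differences of the same sign. In the mice numbered 1 to 3 alone, Iigp1 and Tgtp1 passed the P limit and the other 3 did not (6.07% of all genes passed it as higher).

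**Figure D2:**
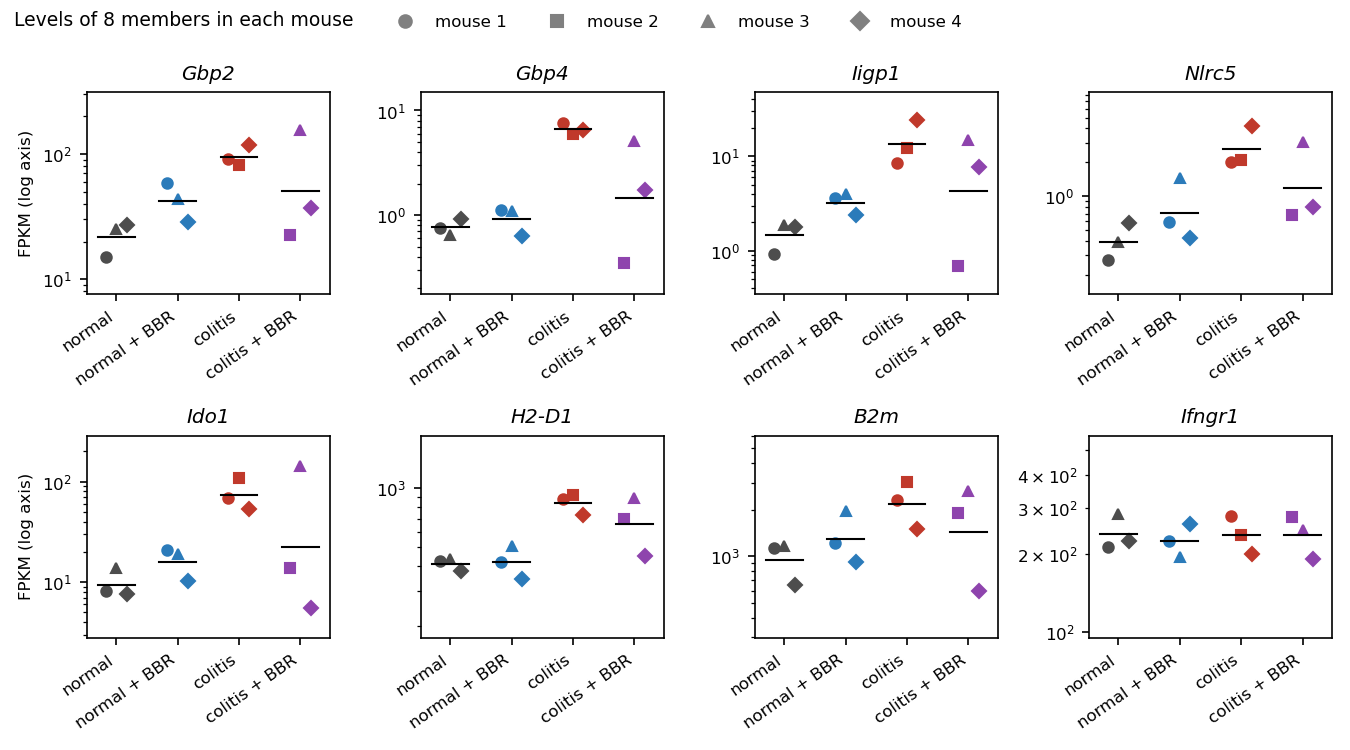
FPKM of 8 of the genes in each mouse, on log axes. Points are mice, with the shape giving the number of the mouse, and the horizontal line is the geometric mean of the group. The colitis mice lie above the normal mice in each panel other than Ifngr1, and the mice with colitis and BBR spread over both levels in Gbp2 and Ido1. In Gbp4 the highest of them (5.15 FPKM) lies just under the colitis mice. In Nlrc5 the lowest of them (0.68 FPKM) lies just above the normal mice.

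Neither chain of the receptor passed the P limit, and among the regulators Nlrc5 did while Irf1 and Irf8 did not. Ifngr1, the ligand-binding chain, was at 211, 283 and 223 FPKM in normal mice and at 279, 235 and 199 FPKM in colitis mice, a difference of -0.01 with an SE of 0.23. Ifngr2, the signalling chain, differed by 0.03 with an SE of 0.23. The groups overlapped for both chains. Irf1, an early regulator of the response, had means of 106 ± 15 (normal) and 131 ± 22 FPKM (colitis), a difference of 0.30 (SE 0.23) that did not pass the P limit. Irf8, a regulator of myeloid cells, differed by 0.32 (SE 0.43), and its colitis mice spread from 13.1 to 35.6 FPKM. Nlrc5, the transactivator of MHC class I genes, was at 0.27, 0.39 and 0.58 FPKM in normal mice and at 2.0, 2.1 and 4.21 FPKM in colitis mice. It thus had a larger difference than the other 2 regulators, 2.44 with an SE of 0.58 (adjusted p = 0.065), with no overlap of the groups.

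Among the class I chains, 3 of 6 were higher in colitis mice past the P limit, where 5.56% of all tested genes were. H2-D1, a classical class I heavy chain, was at 428, 434 and 381 FPKM in normal mice and at 885, 928 and 731 FPKM in colitis mice, with no overlap. Its difference of 1.03 had an SE of 0.30 (adjusted p = 0.10), and it was the 1 member past the adjusted limit in the mice numbered 1 to 3 alone. H2-K1, the other classical heavy chain of this strain, was at 584, 647 and 451 FPKM in normal mice and at 675, 923 and 571 FPKM in colitis mice. The groups overlapped for H2-K1, and its difference of 0.35 (SE 0.31) did not pass the P limit. H2-Q7, the main gene of the non-classical Qa-2 antigen, was at 2.39, 2.23 and 1.96 FPKM in normal mice and at 6.32, 13 and 7.3 FPKM in colitis mice, a difference of 1.90 (SE 0.73) with no overlap. H2-Q4 had a difference of 0.91 (SE 0.33), past the P limit although its groups overlapped, and H2-T23, which encodes the NKG2A ligand Qa-1, had 0.54 (SE 0.31), short of it. In the mice numbered 1 to 3 alone, 5 of the 6 chains passed the P limit, H2-T23 and B2m among them, where 6.07% of all genes passed it as higher. H2-T23 passed it also with a block for the mice numbered 4 (SE 0.16). The share of 50-base stretches found in other genes was 34.9% for H2-Q7, 39.2% for H2-Q4 and 29.8% for H2-T23. B2m, the light chain that all class I molecules need, was at 1129, 1167 and 653 FPKM in normal mice and at 2310, 3026 and 1504 FPKM in colitis mice. All 3 colitis mice were above the normal mice, yet the difference of 1.20 (SE 0.57) did not pass the P limit (adjusted p = 0.25). With a block for the mice numbered 4, the SE of B2m was 0.31 and the adjusted p was 0.040.

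Peptides reach class I molecules through the TAP transporter. Tap1 was at 7.64, 8.18 and 9.08 FPKM in normal mice and at 33.5, 17.8 and 38.2 FPKM in colitis mice. It was higher in every colitis mouse than in any normal mouse, by 1.76 (SE 0.49, adjusted p = 0.093). Its partner Tap2 differed by 0.30 (SE 0.25) and Tapbp, the tapasin that bridges transporter and class I molecule, by 0.32 (SE 0.21), and neither passed the P limit. Reads of Tap2 and Tapbp could in part belong to other genes, since 12.1% and 22.4% of their 50-base stretches are shared.

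The immunoproteasome is a form of the proteasome in which Psmb8, Psmb9 and Psmb10 take the place of the constitutive catalytic subunits encoded by Psmb5, Psmb6 and Psmb7. Psmb8 was at 33.8, 34.1 and 32.9 FPKM in normal mice and at 87.9, 73.6 and 85.5 FPKM in colitis mice. Psmb9 was at 29.1, 20.5 and 18.1 FPKM in normal mice and at 69.5, 46.4 and 65.9 FPKM in colitis mice. Psmb10 had means of 76.2 ± 15.3 and 133 ± 30 FPKM. All 3 inducible subunits were higher in colitis mice past the P limit with no overlap, by 1.29, 1.43 and 0.80 on the log2 scale. Over all tested genes, 5.56% passed it as higher and 7.1% were higher without overlap. The activator subunits Psme1 (0.71, SE 0.35) and Psme2 (0.55, SE 0.31) did not pass it. With a block for the mice numbered 4, Psme1 (SE 0.21) and Psme2 (SE 0.17) passed it with the same differences. Psmb8 and Psmb9 passed it in all 17 further fits, and Psmb10 did not in the mice numbered 1 to 3 alone. Psmb10 also lost it when normal mouse 3, normal mouse 4, colitis mouse 1 or colitis mouse 4 was dropped. None of the 16 genes of the constitutive core and its other activators passed the P limit, and their median difference was 0.14. A ratio of 2 subunits within 1 mouse does not depend on the scaling between mice and was added after the values were seen. The ratio of Psmb8 to Psmb5 was 0.313, 0.378 and 0.542 in normal mice and 0.962, 0.807 and 1.15 in colitis mice, 2.40-fold higher in the geometric mean. The ratio of Psmb9 to Psmb6 was 2.5-fold higher in colitis mice and that of Psmb10 to Psmb7 1.52-fold. None of these 3 ratios overlapped between the groups, which gives p = 0.1 in the exact two-sided permutation test, the smallest it allows. The ratio of Psme1 to Psme3 overlapped (2.79 to 4.93 in normal mice, 4.37 to 9.67 in colitis mice, p = 0.3 in the exact permutation test).

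**Figure D3:**
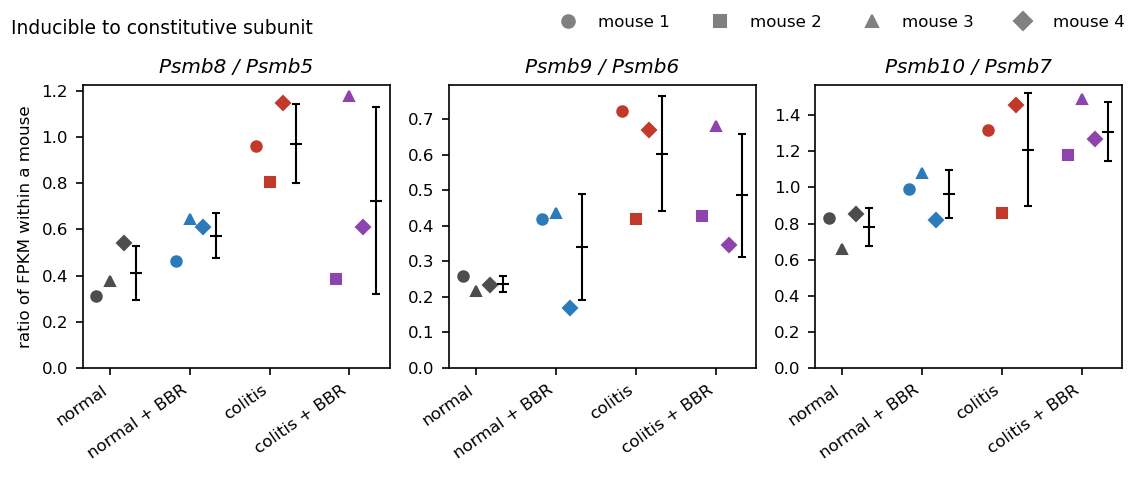
Ratio of an inducible to a constitutive catalytic subunit of the proteasome within each mouse, on linear axes from 0. Points are mice, with the shape giving the number of the mouse, and the bars beside them are the mean and SD of 3 mice. Colitis mice lie above normal mice in all 3 panels. The mice with colitis and BBR spread over both levels for Psmb8 to Psmb5, from 0.387 to 1.18. They all lie above the normal mice for Psmb9 to Psmb6 (0.347 to 0.68 against 0.215 to 0.259). The same holds for Psmb10 to Psmb7 (1.18 to 1.49 against 0.66 to 0.853).

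Ido1, Cd274 and Wars were the remaining targets. Ido1, the enzyme that starts the breakdown of tryptophan to kynurenine, was at 8.15, 13.8 and 7.54 FPKM in normal mice and at 68.5, 108 and 53.8 FPKM in colitis mice. It was without overlap, and its difference of 2.95 had an SE of 0.88 (adjusted p = 0.11). Cd274, which encodes the checkpoint ligand PD-L1, had means of 3.82 ± 0.75 and 7.79 ± 0.52 FPKM and had the largest P of the 24 genes past the P limit (adjusted p = 0.23), and it did not pass when any 1 of the 6 mice was left out, in the mice numbered 1 to 3 alone or with a block for the mice numbered 4. Wars, the tryptophanyl-tRNA synthetase, had means of 42.2 ± 8.2 and 87.3 ± 13.3 FPKM and a difference of 1.05 (SE 0.35), which did not pass the P limit in the mice numbered 1 to 3 alone.

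**Figure D4:**
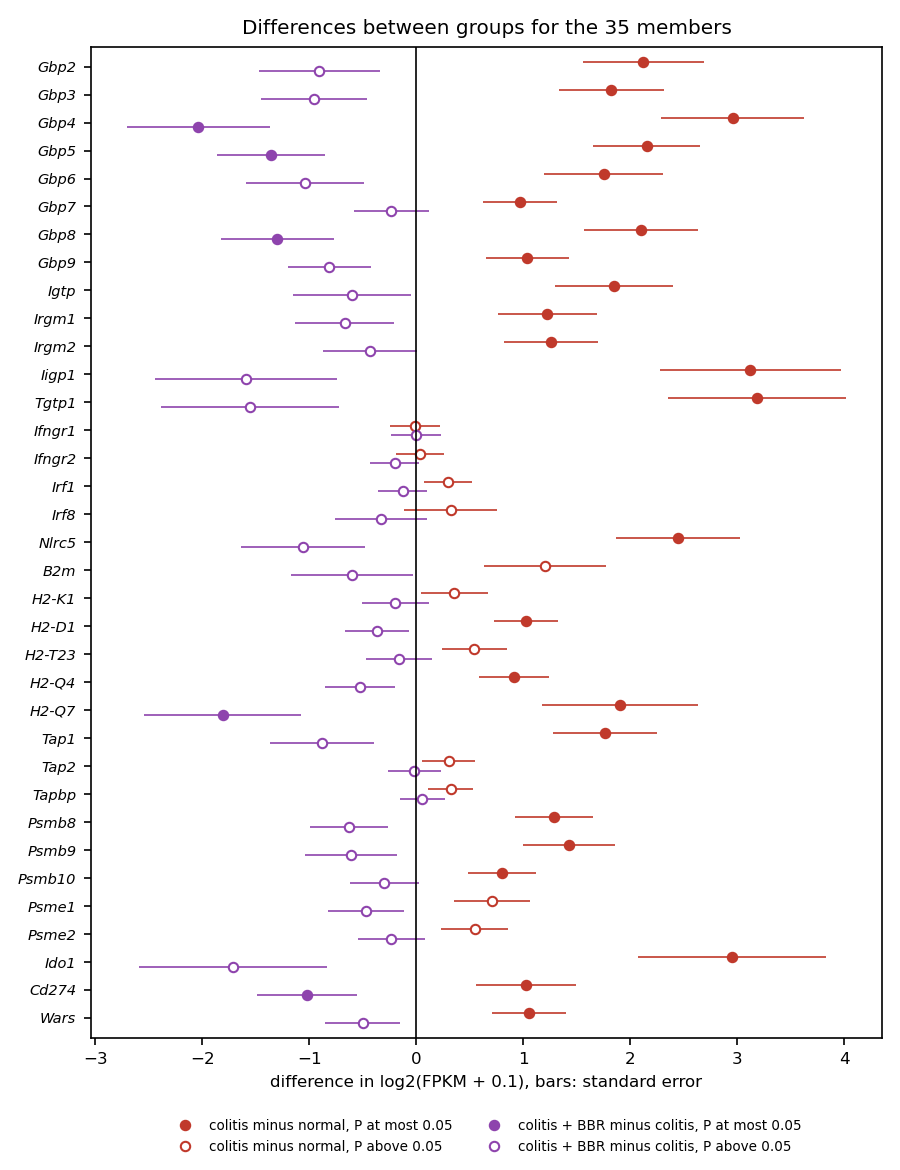
Difference in log2(FPKM + 0.1) between groups for each of the 35 genes, with bars of 1 standard error from the fit over 12 mice. Red points compare colitis with normal mice and purple points colitis mice with and without BBR, and filled points passed an unadjusted P of 0.05. All 24 filled red points lie above 0 and all 5 filled purple points below 0.

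BBR in colitis mice was examined next, to ask whether these genes differ when the drug is given during the injury. The mean was lower with BBR for 34 of the 35 genes, with a median difference of -0.60 on the log2 scale against -0.09 over all tested genes. That median was -0.34 without mouse 2 of the group with colitis and BBR, where 28 of the 35 were lower, -1.0 without mouse 3 of that group, and -0.40 in the mice numbered 1 to 3 alone. However, only 5 genes (14.3%) passed the P limit, all lower, where 5.2% of all tested genes passed it as lower, and no gene of the table passed the adjusted limit with limma (0.0%). The 5 were Gbp4 (-2.04), Gbp5 (-1.36), Gbp8 (-1.30), H2-Q7 (-1.81) and Cd274 (-1.02). Without mouse 2 of the group with colitis and BBR, Gbp4 was at -1.11, Gbp5 at -0.85 and Cd274 at -0.45. Without mouse 3 of that group, Gbp8 was at -2.02 and Cd274 at -1.64. In 3 of the 35 genes (8.57%) the groups did not overlap, namely Gbp4, Gbp9 and H2-Q7, near the 5.66% of all tested genes that were lower without overlap. Centring each mouse on its median, which moved the median of all genes from -0.09 to 0.06, left 2 members past the P limit, Gbp4 and Gbp5 (3.49% of all genes passed as lower), and 31 of 35 lower. Of all genes past the P limit 18.6% were higher in the mice with BBR, and 46.1% after centring. In the mice numbered 1 to 3 alone, 1 member, H2-Q7, passed it, where 6.21% of all genes did as lower. With a block for the mice numbered 4, 7 members passed it, where 7.8% of all genes did as lower, with Gbp9, Psme1 and Ido1 gained and Cd274 lost. Gbp4 alone of the 5 passed it in each of the 6 fits that left out 1 mouse, with differences of -2.88 to -1.11.

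The mice with colitis and BBR differed widely among themselves. Gbp2 was at 22.7, 156 and 37.2 FPKM in mice 2, 3 and 4, so that mouse 3 was above every colitis mouse and mouse 2 was within the range of the normal mice. Gbp4 was at 0.35, 5.15 and 1.74 FPKM, Gbp5 at 1.15, 5.81 and 2.13 FPKM, and Gbp8 at 1.01, 4.62 and 0.91 FPKM. Mouse 3 was again the highest of the 3 in each of these genes. Ido1 was at 13.9, 144 and 5.57 FPKM, and Iigp1 at 0.69, 15.0 and 7.64 FPKM. For Ido1 the means of colitis mice with and without BBR were 54.5 ± 77.7 and 76.9 ± 28.2 FPKM, so the SD with BBR was above its mean. Cd274 was at 1.67, 9.0 and 3.53 FPKM, against 7.25 to 8.29 FPKM in colitis mice. H2-Q7, at 2.33, 4.67 and 1.15 FPKM with BBR, was the 1 of the 5 called genes whose mouse 3 lay clearly under the lowest colitis mouse (6.32 FPKM), and Gbp4 in mouse 3 lay just under it (5.15 against 5.90 FPKM).

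Over the 25 genes in which colitis and normal mice did not overlap, mouse 2 of the group with colitis and BBR was at or below the highest normal mouse in 19 and at or above the lowest colitis mouse in 1. Mouse 3 was in the colitis range in 22 and in the normal range in 0. Mouse 4 was in the normal range in 8, in the colitis range in 3 and between them in 14. Mouse 3 was also the nearest to the colitis mice over the 1088 genes of the whole table that were higher in colitis without overlap, with 70.1% in the colitis range against 24.4% in mouse 2 and 9.65% in mouse 4. The share in the normal range was 48.4% of these genes in mouse 2 and 62.6% in mouse 4, against 76% and 32% of the 25 members, so that mouse 2 was nearer to normal than mouse 4 for the members and mouse 4 was the nearer for the whole table. The mean of the 35 genes relative to normal mice was 0.01, 1.43 and 0.41 on the log2 scale in mice 2, 3 and 4, and 1.25, 1.28 and 1.47 in the 3 colitis mice. The counts therefore rest on single mice: 18 of the 35 passed the P limit without mouse 3 of this group, with Ido1 past the adjusted limit, 1 passed without mouse 2 and 3 without mouse 4. Of all genes, 7.54%, 2.46% and 9.54% passed it as lower in these 3 fits. The count was also 2 without colitis mouse 2 and 3 without colitis mouse 4, where 4.21% and 4.39% of all genes passed as lower.

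**Figure D5:**
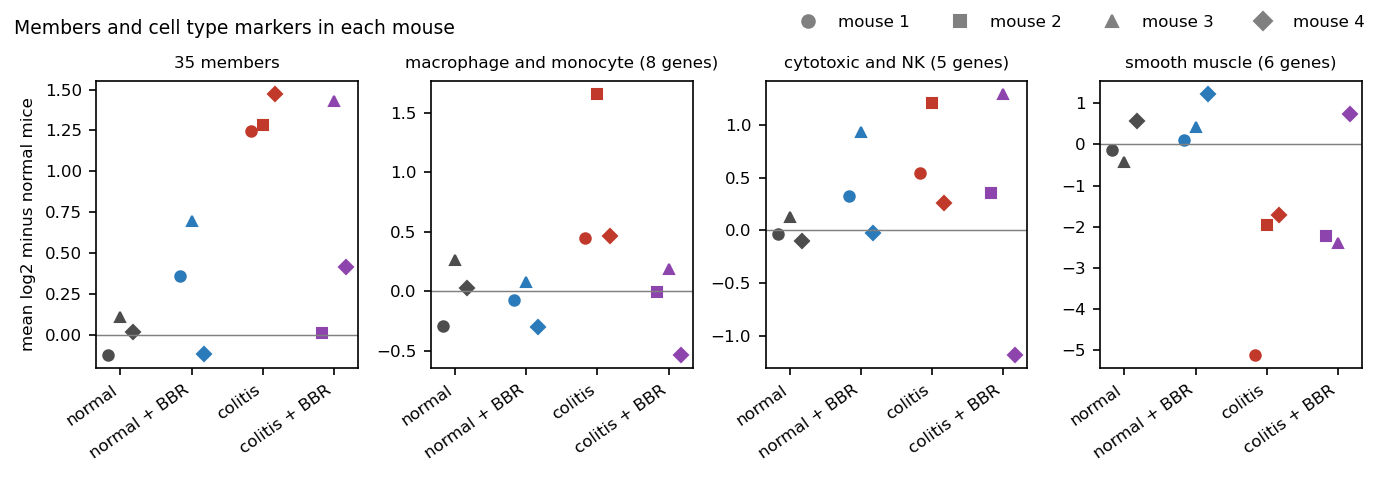
Mean of the 35 genes and of 3 lists of cell type markers in each mouse, as mean log2(FPKM + 0.1) minus that of the 3 normal mice. Each panel has its own linear axis, points are mice and the shape gives the number of the mouse. Mouse 3 with colitis and BBR is at 1.43 for the 35 genes and at 0.19 for the macrophage and monocyte markers, and mouse 4 of that group is at 0.74 for smooth muscle, where the colitis mice are at -5.12 to -1.72.

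Markers of some leukocytes moved with the groups. The largest median among the leukocyte lists was that of the neutrophil markers, of which 5 of 7 were tested. All 5 were higher in colitis mice past the P limit with a median of 2.31, and with BBR in colitis the median was -0.54 and 0 of the 5 passed it. S100a8 was listed at 0 in every normal mouse. Csf3r was at 0.26, 0.25 and 0.66 FPKM in normal mice, at 2.11, 3.27 and 1.47 FPKM in colitis mice and at 3.24, 1.22 and 0.77 FPKM in mice 2, 3 and 4 with colitis and BBR. All 8 markers of macrophages and monocytes were higher in colitis mice than in normal mice, 5 of them past the P limit, and their summed level was 191 to 252 FPKM (normal), 302 to 917 FPKM (colitis), 180 to 286 FPKM (normal with BBR) and 157 to 312 FPKM (colitis with BBR). Of these 8 markers 6 passed the P limit between colitis mice with and without BBR, with a median of -1.14. Of the 4 general leukocyte markers 2 passed it in colitis (median 0.98) and 2 with BBR in colitis (median -1.23). Markers of cytotoxic and NK cells, the makers of interferon-gamma, were low, with sums over 8 genes of 3.17 to 5.54 FPKM (normal), 4.53 to 11.1 FPKM (colitis), 3.39 to 10.7 FPKM (normal with BBR) and 1.09 to 13.4 FPKM (colitis with BBR). The highest of these sums, 13.4 FPKM, was that of mouse 3 with colitis and BBR, and the lowest that of mouse 4 of that group. These sums did not follow the 35 genes in every mouse. Colitis mouse 4, with the highest mean of the 35 genes (1.47), had a sum of 4.53 FPKM, within the range of normal mice, and mouse 2 with colitis and BBR, with a mean of 0.01, had 5.70 FPKM. All 5 tested genes of this list were higher in colitis mice, 1 past the P limit, with a median of 0.85, and with BBR in colitis the median was -0.63 with 0 past the limit. T cell markers summed to 2.21 to 10.5 FPKM over the 12 mice. Of 7 tested, 5 were higher in colitis (median 0.41, 1 past the limit), and with BBR in colitis the median was -0.55, with 1 past it. Markers of B cells (1 of 5 higher in colitis mice, median -0.35) and of dendritic cells (3 of 6 higher, median -0.04) had no gene past the P limit in colitis against normal mice. Smooth muscle markers were lower in colitis mice past the P limit in 6 of 6 genes, with sums of 1628 to 3039 FPKM in normal and 70.9 to 651 FPKM in colitis mice, and mouse 4 with colitis and BBR was at 3435 FPKM. Of the 4 endothelial markers 2 were lower in colitis past the P limit, and the 6 fibroblast markers had a median of -1.05 with BBR in colitis, 1 of them past the limit. Epithelial markers summed to 9676 to 17010 FPKM over all mice, and none of the 9 passed the P limit in colitis. The part of these shifts in cell types in the levels of the 35 genes was not tested.

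In normal mice, BBR against no BBR gave a higher mean for 30 of the 35 genes, with a median of 0.25 against -0.02 over all genes. Without mouse 3 of the group with BBR, 22 were higher and the median was 0.09. Without mouse 4 of that group the median was 0.53, and in the mice numbered 1 to 3 alone it was 0.47. With limma 0 of the 35 passed the P limit, which 1.36% of all tested genes did in either direction, and 0 passed the adjusted limit (0.0% of all genes). The replicate numbers were taken to pair the mice of this comparison. However, the mice numbered 1 and 3 deviated together more across numbers (r = 0.3662 and 0.4564 over genes) than within them (0.2904 and 0.1092). With the number as a block 3 members passed the P limit, which 2.56% of all genes did in that fit. Igtp (0.82) and H2-T23 (0.35) were higher and Irf8 (-0.85) was lower. In 5 of the 35 genes the groups were apart with BBR higher, against 4.17% of all tested genes. They were Gbp2, Gbp3, Gbp7, Iigp1 and Tgtp1. Irf8 was apart in the other direction, at 9.79, 15.2 and 7.53 FPKM with BBR and at 21.97, 19.03 and 15.99 FPKM without, with the smallest P of the 35. This is 1 of the 35 (2.86%), and 836 of the 15315 tested genes were lower without overlap, so that the count says nothing about the members. Gbp2 was at 59.1, 43.8 and 28.5 FPKM with BBR and at 15.2, 25.1 and 27.2 FPKM without, and Iigp1 at 3.60, 3.99 and 2.36 FPKM against 0.93, 1.87 and 1.79 FPKM. The lowest mouse with BBR was close to the highest mouse without in both. The exact permutation p was 0.1 for each of these 5 genes, the smallest it allows. Mouse 3 of this group had the highest mean of the 35 genes relative to normal mice, 0.70, against 0.36 in mouse 1 and -0.12 in mouse 4, and it also had the highest sum of cytotoxic and NK markers of its group, 10.7 FPKM.

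Colitis mice receiving BBR were then set against normal mice receiving BBR, to ask what the injury does under the drug. Here 0 of the 35 genes passed the P limit with limma, where 19.7% of all tested genes did in either direction, and 0 passed the adjusted limit, which 0.0392% of all genes did. The mean was higher with colitis for 32 of the 35, but the median was 0.23, and no gene of the 35 was higher without overlap, against 2.26% of all genes. This direction rested on single mice: without mouse 3 of the group with colitis and BBR only 13 had a higher mean and 22 a lower one (median -0.11), and without mouse 4 of the normal mice with BBR 19 had a higher mean and 16 a lower one (median 0.02). Irf8 had the largest difference, 0.85 (SE 0.43), from 10.9 ± 4.0 to 20.6 ± 10.7 FPKM. The median over all genes was -0.40 here, and centring each mouse on its median moved it to 0.06. After centring, the median of the members was 0.68, all 35 were higher and 9 passed the P limit (7.08% of all genes passed as higher), while the share of higher genes among all those past the limit went from 12.1% to 63.5%. Without mouse 2 of the group with colitis and BBR, 10 members passed the P limit, all higher, where 2.34% of all genes did, and the median was 0.54.

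Whether BBR acts differently in colitis and in normal mice was tested by the interaction. It was negative for 32 of the 35 genes with a median of -1.0 on the log2 scale, against -0.08 over all tested genes. The P limit was passed by 6 genes (17.1%), all negative, where 1.72% of all tested genes passed it as negative, and no gene of the table passed the adjusted limit with limma (0.0%). The 6 were the GBPs Gbp2 (-1.85, SE 0.80), Gbp3 (-1.69, SE 0.70), Gbp4 (-2.28, SE 0.94) and Gbp6 (-1.73, SE 0.78) and the GTPases Iigp1 (-2.69, SE 1.20) and Tgtp1 (-2.67, SE 1.18). Without mouse 2 of the group with colitis and BBR these interactions were smaller, at -1.26 (Gbp2), -1.30 (Gbp3), -1.36 (Gbp4), -1.05 (Gbp6), -1.43 (Iigp1) and -1.60 (Tgtp1), and of the 6 only Gbp4 passed the P limit. Each of them had a higher mean with BBR in normal mice and a lower mean with BBR in colitis mice, and neither of these differences passed the P limit other than that of Gbp4 in colitis mice. The 2 comparisons with colitis mice share those mice, and the 2 with normal mice share theirs. The number of members past the P limit went from 0 (without normal mouse 1, normal mouse 3 with BBR or colitis mouse 4) to 15 (without mouse 3 with colitis and BBR), and was 1 in the mice numbered 1 to 3 alone and 10 with a block for the mice numbered 4, where B2m, H2-T23, H2-Q4, Psme1 and Ido1 were gained and Gbp6 was lost. Of all genes, 3.73% passed it as negative without mouse 3 with colitis and BBR, 2.51% in the mice numbered 1 to 3 and 3.0% with the block. The median was -0.63 without mouse 2 with colitis and BBR and -0.67 without normal mouse 3 with BBR. Of all genes past the limit 28.8% were positive, and 62.5% after centring. After centring 4 members passed it, all negative, where 0.875% of all genes passed it as negative.

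The ligand itself was at the edge of detection. Ifng was at 0.14 FPKM or less in all 12 mice, where 3 reads on its transcript were worth 0.13 to 0.22 FPKM, so that no difference between the groups could be read at this depth. Of the 9 genes of interferon-gamma production and signalling that were tested and are reported here, 1 was higher in colitis mice past the P limit, where 5.56% of all tested genes were, so that the count says nothing about the list. The gene was Socs1, the feedback inhibitor of the kinases, at 2.95, 2.46 and 3.06 FPKM in normal mice and at 6.00, 5.64 and 13.7 FPKM in colitis mice. Its difference was 1.43 (SE 0.37), and the groups did not overlap. Jak1 (-0.10, SE 0.21) and Jak2 (-0.08, SE 0.19) overlapped between the groups.

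Among 9 further tested targets of interferon-gamma, 5 were higher and 1, Gbp2b, was lower in colitis mice past the P limit, and 1 passed the adjusted limit, where 5.56%, 15.9% and 1.08% of all tested genes did. The latter was Cxcl9, a chemokine that attracts T cells, at 0.57, 0.62 and 0.53 FPKM in normal mice and at 7.39, 32.0 and 4.47 FPKM in colitis mice. Its difference was 3.94 (SE 0.80, adjusted p = 0.043). In colitis mice receiving BBR it was at 0.33, 3.40 and 0.66 FPKM, below every colitis mouse, with a difference of -3.30 (SE 0.80, adjusted p = 0.44). Mouse 3 was under the colitis range for Cxcl9, though it was in that range for 22 of the 25 members above. Cxcl10, which binds the same receptor, differed by 2.01 (SE 0.69) between colitis and normal mice and by -1.16 (SE 0.69) with BBR, the latter short of the P limit. Ciita, the class II counterpart of Nlrc5, differed by 0.53 (SE 0.55) in colitis and did not pass the limit.

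The other class I heavy chains went both ways. Of 11 further tested ones, 2 were higher (Cd1d1 by 1.91, H2-Q6 by 1.26) and 1 was lower (Mr1, -1.38) in colitis mice past the P limit, where 5.56% of all genes passed as higher and 15.9% as lower, with a median of -0.04 over the 11, and of 5 further genes of peptide trimming and loading 1 was higher. Erap1, which trims peptides in the endoplasmic reticulum, differed by 0.13 (SE 0.21). With BBR in colitis mice, 3 of the 9 further targets, 2 of the 11 heavy chains and 1 of the 9 production and signalling genes were lower past the P limit, against 5.2% of all tested genes, and none of the loading or constitutive proteasome genes were.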

How the data were processed

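Colorectal RNA of 12 mice was sequenced by the authors, who filtered the reads with SOAPnuke and, per the labels' processing notes, used Bowtie2 2.2.5, RSEM 1.2.12 and the build mm9. The deposited table has 1 column per mouse, taken as FPKM from the range of its values (TPM over part of the genes is possible). Labels and methods disagree on the library kit and the sequencer. Mice were grouped by the labels. The 15315 of 17734 genes with a mean of at least 0.1 were fitted as log2(FPKM + 0.1) with limma (version 3.58.1, under R version 4.3.3) over all 12 mice, with a mean for each group and a trend on mean expression, in 5 comparisons adjusted by Benjamini-Hochberg. No scaling between mice was added. In normal mice with and without BBR, mice of the same number deviated together from their group means (r = 0.2904, 0.1092 and 0.6566 over genes for numbers 1, 3 and 4), so that these numbers were taken to pair the mice, although mouse 1 without BBR and mouse 3 with it (0.3662), and mouse 3 without and mouse 1 with it (0.4564), deviated together more than the pairs numbered 1 and 3 did. Whether mice were separate in litter or cage is not given in the sources used here, and p-values cover the spread between these mice only. The genes and lists were chosen with earlier results of these data known. All 35 genes are named, with counts for every pathway list and values for Ifng, Jak1, Jak2, Socs1, Cxcl9, Cxcl10, Ciita, Erap1 and any list gene past the adjusted limit, except that 1 gene of interferon-gamma signalling is not reported here and was left out of its list's counts. Shared stretches of 50 bases were counted in GENCODE transcripts of another build than that of the files, so no gene coordinates are given other than those of RefSeq promoters. Figures, ratios and exact tests were made with Python 3.11.15 (SciPy 1.17.1, pandas 2.3.3, NumPy 2.4.6) and drawn with matplotlib 3.10.9.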

Additional observations from a re-analysis of the deposited data

How the results depend on the processing

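The table holds no read counts, each group has 3 mice, and the scaling between mice is that of the authors, so counts past a limit were the least stable results, and the cause of their shifts was not tested. In colitis against normal mice, 0 members passed the adjusted limit in the fit reported, 1 with a pseudocount of 1 (1.27% of all genes), 8 with quantile normalization (1.68%), 4 after centring on the median (1.21%), 14 with a block for the mice numbered 4 (9.22%), 1 in the mice numbered 1 to 3 alone (5.25%), 16 with the compared groups alone (3.19%) and 21 with the replicate number as a block (4.79%). In colitis mice with against without BBR, 5 passed the P limit, all lower, and 2 did with quantile normalization (4.11% of all genes as lower), 2 after centring (3.49%), 2 with the compared groups alone (2.92%), 1 in the mice numbered 1 to 3 alone (6.21%) and 21 with the replicate block (8.98%). Leaving out 1 mouse gave 1 to 18 (2.46% to 9.54%), with 0 to 1 past the adjusted limit. In normal mice with against without BBR, 0 passed the P limit, and 1 did with quantile normalization (2.36% of all genes in either direction), 1 after centring (1.93%), 1 with a block for the mice numbered 4 (2.43%), 2 in the mice numbered 1 to 3 alone (1.8%), 3 with the compared groups alone (4.91%), 3 with the replicate block (2.56%) and 0 to 1 without 1 mouse (0.614% to 1.7%). With colitis and BBR against normal with BBR, 0 passed it, and 1 did with a filter at a mean of 1 (2.41% of all genes as higher), 6 with quantile normalization (6.49%), 9 after centring (7.08%), 1 without a trend (2.17%), 1 with a block for the mice numbered 4 (3.25%), 1 in the mice numbered 1 to 3 alone (3.6%), 7 with the replicate block (2.9%) and 0 to 10 without 1 mouse (1.34% to 3.87%). For the interaction 6 passed it, and 10 did with a block for the mice numbered 4 (3.0% of all genes as negative), 1 in the mice numbered 1 to 3 alone (2.51%), 23 with the replicate block (3.79%) and 0 to 15 without 1 mouse (1.01% to 3.73%). Outside normal mice, 2 groups compared share 2 replicate numbers, and all 4 groups share number 4 alone. The mice numbered 4 deviated together in every pair of groups (r = 0.3569 to 0.7514 over genes), and the other shared numbers were not taken to pair mice there.
The 24 genes past the P limit in colitis against normal mice kept their direction in all 408 further fits and the limit in 374 of them. The 5 genes lower with BBR in colitis kept their direction in 85 fits and the limit in 53, and the 6 genes of the interaction theirs in 132 and 72.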
